A study of Mus musculus with 4 samples.

Results

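The 8 genes *Lhx1*, *Lhx5*, *Lmx1b*, *Pou4f1*, *Pax2*, *Tlx3*, *En1* and *Lbx1* encode transcription factors of hindbrain interneurons. NR2F1 signal around them was described as 149 of 263639 regions, namely every region within 20 kb of the gene body after the called peaks of all libraries were merged where they overlapped by at least 1 bp. The regions were taken by gene name and position, without a threshold on signal. The data come from anti-NR2F1 single-cell CUT&Tag, in which an antibody brings the transposase Tn5 to DNA near the bound protein and each cut site is counted in each cell barcode. Cells came from microdissected rhombomere 4 (r4) and adjacent hindbrain of embryonic day 10.5 mice. The groups were 2 WT libraries, from pools of 26 and 26 embryos, and 2 Fam5snv/snv libraries, from pools of 8 and 16 embryos. Fam5snv/snv mice are homozygous for a knocked-in single-nucleotide variant, the Fam5 SNV, in the *Gata2* regulatory element cRE2. Both genotypes carried the Isl1MN-GFP transgene, which marks motor neurons and was used for sorting. Per the labels, GFP-negative cells were let in at the end of each sort to reach the cell number, so interneurons and other cells can be among the barcodes. The barcodes were not assigned to cell types here, and NR2F1 signal at a gene is not a measure of its expression.

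Interneuron classes of the hindbrain arise from progenitor domains stacked from dorsal to ventral, and each class turns on its own combination of homeodomain and paired-domain factors. LBX1 marks dorsal association interneurons, within which TLX3 and LMX1B go with the glutamatergic and PAX2, LHX1 and LHX5 with the GABAergic and glycinergic fate, POU4F1 marks several dorsal excitatory classes, and EN1 marks ventral inhibitory V1 interneurons. NR2F1 (COUP-TF1) is an orphan nuclear receptor that binds direct repeats of AGGTCA.

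The libraries differed in depth and in how much of the genome their peaks covered. They held 1377 to 2740 barcodes and 3083946 to 10341894 cut sites in 42168 to 170993 peaks, which covered 31.0 Mb in WT replicate 1 and 93.1 to 143 Mb in the other libraries. WT replicate 1 therefore stands apart, and since a library has counts only inside its own peaks, the fold changes of the named regions and gene windows of the 8 genes were also computed without it. Barcodes shared by a pair of libraries numbered 3 to 12, at most 0.799% of the smaller one.

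AGGTCA, and a direct repeat of it with 1 free base between the copies, were searched on both strands in 500 bp at the midpoint of the interval that all libraries called, in the 34 member regions that could be tested (defined with the peak calls) and in the 34989 of all 35770 tested regions that have such an interval. AGGTCA was present in 10 of the 34 windows (29.4%), against 37.1% of these 34989. The repeat with up to 2 mismatches was present in 7 of 34 (20.6%), against 13.8%. With at most 1 mismatch it was present in 1 of 34 (2.94%), against 4.34%. Over the whole shared interval (median 713.5 bp in the 34 and 585 bp in all tested regions) AGGTCA was present in 16 of 34 (47.1%), against 43.1%. There the repeat was present in 7 of 34 with up to 2 mismatches (20.6%, against 17.0%). With at most 1 mismatch it was again in 1 of 34 (2.94%, against 5.24%). The 7 repeats are printed because they are the matches to the NR2F1 repeat found in these 34 windows, and the other member regions were not searched. They are read on the plus strand of mm10 (GRCm38), and the capitals mark the 13 bases of the repeat or of its reverse complement. Of these, 5 include an exact AGGTCA or its reverse complement TGACCT and so were also counted as AGGTCA. A match of these letters is a description and not evidence of a site.
En1 upstream: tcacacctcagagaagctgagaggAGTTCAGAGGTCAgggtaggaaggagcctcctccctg
En1 promoter region: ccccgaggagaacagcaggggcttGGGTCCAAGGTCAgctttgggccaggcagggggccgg
Lmx1b promoter region: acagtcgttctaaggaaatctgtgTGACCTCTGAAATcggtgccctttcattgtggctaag
Lmx1b downstream: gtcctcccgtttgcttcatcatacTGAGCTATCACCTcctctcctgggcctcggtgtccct
Lhx5 downstream: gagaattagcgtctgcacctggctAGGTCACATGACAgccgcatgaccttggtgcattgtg
Pax2 intron: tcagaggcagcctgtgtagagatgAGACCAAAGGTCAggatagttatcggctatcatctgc
Pou4f1 downstream: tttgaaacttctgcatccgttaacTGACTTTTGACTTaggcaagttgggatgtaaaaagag

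The printed windows lie at chr1:120590138-120590198 and chr1:120604874-120604934 for *En1*, chr2:33642066-33642126 and chr2:33559778-33559838 for *Lmx1b*, chr5:120457912-120457972 for *Lhx5*, chr19:44771690-44771750 for *Pax2* and chr14:104460202-104460262 for *Pou4f1*. The *En1* upstream window held the repeat with 1 mismatch and the others held it with 2. The *Lhx5* downstream window lies within *Sdsl* and also holds a TGACCT 13 bases past the AGGTCA, in the opposite orientation. Within 500 bp, the promoter regions of *En1*, *Lmx1b*, *Tlx3* and *Lbx1* held AGGTCA (4 of 8), against 21.1% of 12551 tested promoter regions with such an interval. Over the whole interval it was again 4 of 8, against 38.1%. A promoter region is a merged region that reaches the promoter, and a site in it can lie elsewhere. The gene starts are chr1:120602418 (*En1*), chr2:33640511 (*Lmx1b*), chr11:33203589 (*Tlx3*) and chr19:45235812 (*Lbx1*). The promoter region sites printed for *En1*, *Lmx1b* and *Tlx3* lie more than 1 kb from these starts, and that of *Lbx1* within 1 kb. The sites in *Tlx3* and *Lbx1* are shown as well, because no repeat was found there, together with the pair in the *Lmx1b* intronic region of highest signal per kb, and this pair lies outside the 500 bp window and inside the interval all libraries called. Here the capitals mark AGGTCA on the plus strand, at chr11:33205171-33205216, chr19:45236434-45236479, chr2:33615989-33616034 and chr2:33617360-33617405, in the order printed.
Tlx3 promoter region: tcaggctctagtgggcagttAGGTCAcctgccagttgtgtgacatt
Lbx1 promoter region: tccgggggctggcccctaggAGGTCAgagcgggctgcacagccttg
Lmx1b intron, site 1: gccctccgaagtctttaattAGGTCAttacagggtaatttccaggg
Lmx1b intron, site 2: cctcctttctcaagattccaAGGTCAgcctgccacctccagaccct

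NR2F1 peaks were called near all 8 genes, most of them in some libraries only. Of the 149 regions, 34 had a peak in all 4 libraries (22.8%, against 13.6% of all regions), 28 in 3, 26 in 2 and 61 in 1. These are counts of calls and not of signal, since some regions were a few bp wide and held 0 cut sites in every library. A short stretch of called peak also counted for a library, such as 3 bp with 0 cut sites in Fam5snv/snv replicate 1 at chr1:120615980-120616380. WT replicate 1 had a peak in 36 of the 149, WT replicate 2 in 93, and the Fam5snv/snv libraries in 93 and 111. All 28 regions with a peak in 3 libraries lacked one in WT replicate 1, as did 96.5% of such regions genome-wide. Peaks in both Fam5snv/snv libraries and neither WT library were found in 14 regions (9.40%, against 8.79% of all regions), and none of the 149 had the opposite pattern, which 0.018% of all regions had. Those 34 were tested, and all passed the count minimum of 10 cut sites in at least 2 of the libraries. They held 99.9% of the member cut sites of WT replicate 1 and 78.2% to 84.6% of those of the other libraries, with a mean of 4.45 to 154 CPM.

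**Figure D1:**
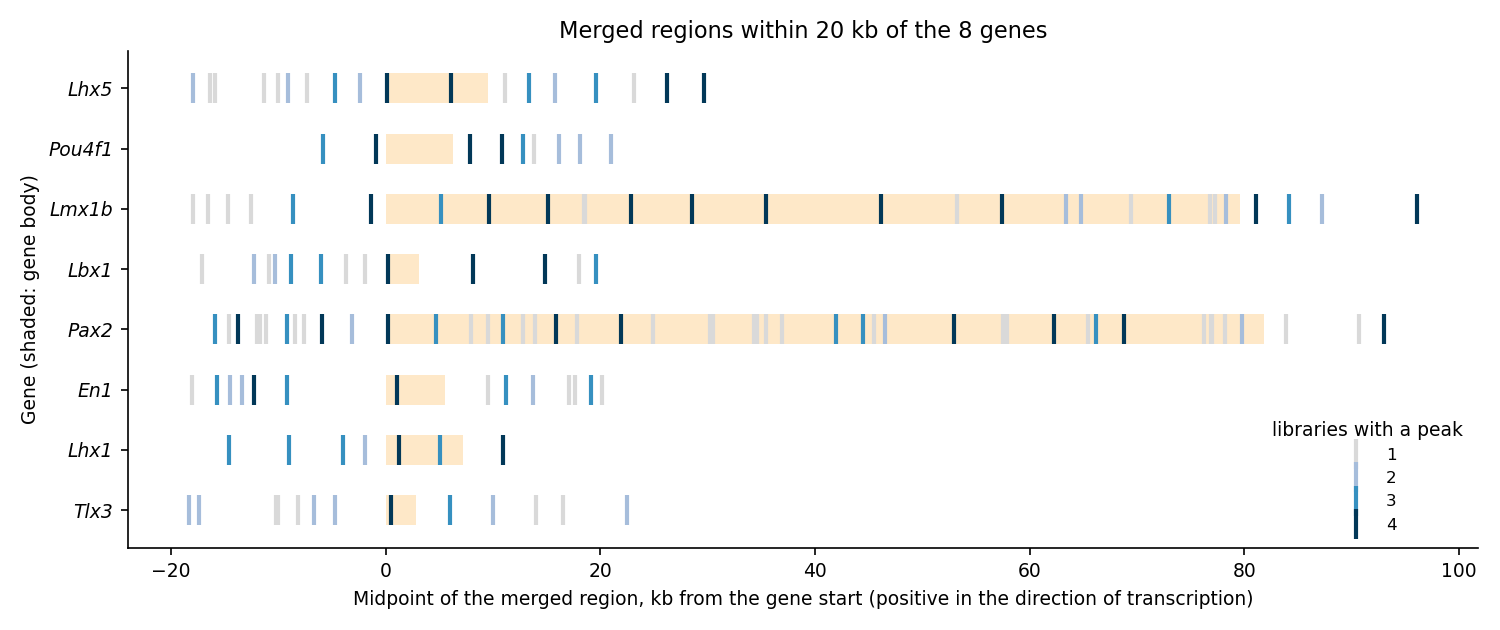
Each tick is 1 of the 149 merged regions, placed by its midpoint in kb from the gene start (positive in the direction of transcription), with 1 row per gene, the gene body shaded and the colour giving the number of libraries with a peak. Regions with a peak in all 4 libraries lie at the start of each gene and are most numerous along *Lmx1b* (10) and *Pax2* (9).

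The 2 long genes held most of these regions. *Pax2* (chr19:44756045-44837871, plus strand, 81.8 kb) had 47 regions, of which 9 were in all libraries and 28 in a single library. Several of the 28 were very short and held no cut site in any library, such as the 4 bp at chr19:44773859-44773862. *Lmx1b* (chr2:33560965-33640511, minus strand, 79.5 kb) had 28, of which 10 were in all libraries. The short genes had 7 (*Lhx1*) to 18 (*Lhx5*) regions, with 1 (*Tlx3*) to 4 (*Lhx5*) in all libraries. By position, 10 of the 149 lay at a promoter of the member gene itself, and *Lhx1* and *Pax2* had 2 promoter regions each. A promoter was taken as 1 kb on either side of a protein-coding transcription start site, and promoters of neighbouring genes were not counted in the 10. The second of each, chr11:84519060-84521887 and chr19:44758867-44762645, had no peak in WT replicate 1 and was not tested; its cut sites in WT replicate 2 and in Fam5snv/snv replicates 1 and 2 were 50, 76 and 82 for *Lhx1*, and 57, 141 and 96 for *Pax2*.

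*Lmx1b* carried the largest part of the signal around these genes. The 149 regions held 2987 and 4338 cut sites in WT replicates 1 and 2 and 10756 and 11691 in Fam5snv/snv replicates 1 and 2, which is 0.0969%, 0.121%, 0.120% and 0.113% of the cut sites of those libraries. *Lmx1b* held 56.3%, 39.7%, 43.7% and 42.9% of them and *Pax2* held 11.9% to 13.3%. Each of the other genes held 2.31% to 10.9%. The *Lmx1b* share was highest in WT replicate 1, where *En1* and *Lbx1* had their lowest shares, 4.15% and 3.65%, against 7.91% to 10.9% in the other libraries.

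Within *Lmx1b*, which specifies glutamatergic dorsal interneurons and serotonergic neurons, the regions of highest CPM were intronic. Signal is given as CPM, cut sites scaled to a common total of tested regions by TMM normalization. The intronic region chr2:33588898-33599896, centred 46.1 kb from the gene start, had 188 and 138 CPM in WT against 150 and 140 in Fam5snv/snv, the highest mean CPM of any member region without regard to its width. The intronic region chr2:33614249-33621122, which also overlaps *Gm38011*, had 138 and 91.8 CPM in WT against 130 and 115 in Fam5snv/snv. The WT values span the Fam5snv/snv values in both regions. CPM grows with the length of called peak, so densities are given per kb of called peak. On that scale the second of these intronic regions had 62.3, 24.97, 21.01 and 17.1 CPM per kb in WT replicates 1 and 2 and Fam5snv/snv replicates 1 and 2, and the *Lmx1b* promoter region had 19.2, 12.3, 8.84 and 6.83, lower in 4 of 4 libraries. Not all introns were denser than the promoter: the mean densities of 3 other tested intronic regions were 11.1, 10.5 and 10.1 CPM per kb, against 11.8 for the promoter region. A region downstream of the gene, chr2:33541404-33547490, had 80.6 and 59.4 CPM in WT against 56.7 and 68.0 in Fam5snv/snv.

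The promoter regions of the 8 genes were wide and of low density. They were 2.34 kb (*Lhx5*) to 15.3 kb (*En1*) wide, at the 54.0 to 99.8 percentile of tested promoter regions. Their mean over the 4 libraries was 9.48 to 12.2 CPM per kb, at the 5.02 to 19.3 percentile. Within single libraries their percentiles were 4.57 to 34.5 in WT replicate 1, 7.05 to 27.4 in WT replicate 2, and 4.45 to 32.6 and 8.70 to 25.8 in the Fam5snv/snv libraries, so all 8 lay below the middle of the promoter regions in every library. By total CPM, without regard to width, they lay at the 38.7 to 89.9 percentile, with a median of 55.8 against 9.82 per kb. The median density was 10.6 CPM per kb for the 8, 12.1 for 23 promoter regions of other interneuron factors and 17.9 for all tested promoter regions. It was 19.7 for 10 promoter regions of motor neuron factors and cholinergic genes, the only list above the median of all. Interneuron transmitter genes were at 8.11 and neural crest and mesenchyme markers at 11.1. Of the 4 transmitter gene regions, those of *Gad1* and *Slc6a5* had 0 cut sites in WT replicate 1, which lowers their means. In WT replicate 2 and Fam5snv/snv replicates 1 and 2 the transmitter list was at 9.19, 8.34 and 6.45, against 10.04, 8.14 and 6.80 for the 8 genes. Blood, endothelial and neural progenitor markers were at 14.3, 14.6 and 15.4, so a low density was not particular to the 8 genes.

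**Figure D2:**
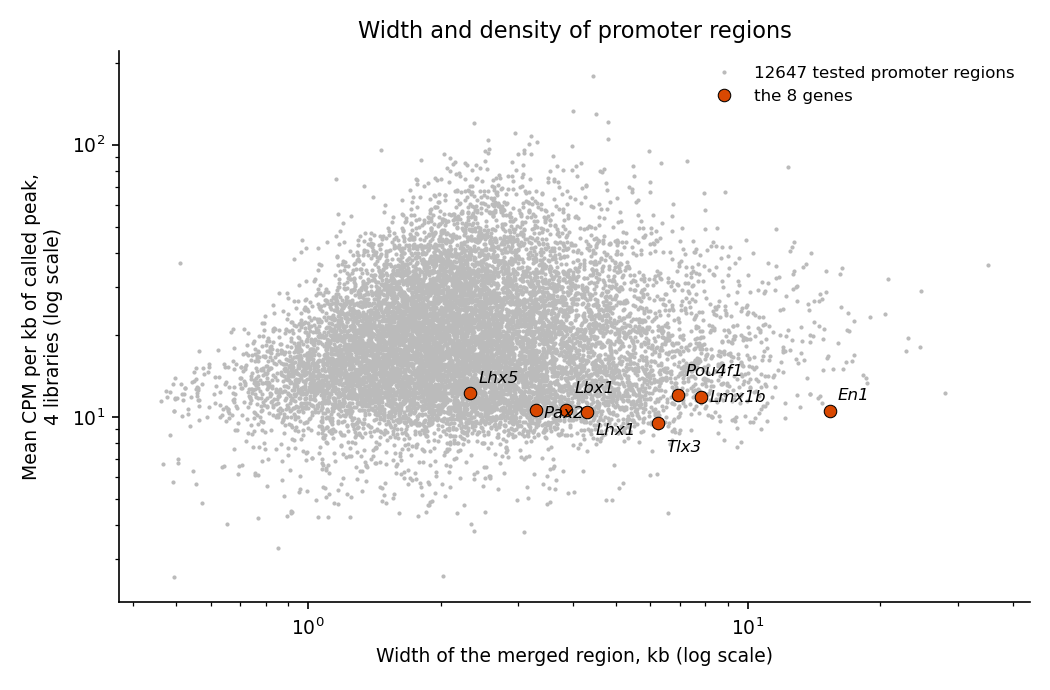
Each grey point is 1 of 12647 tested promoter regions, by its width in kb and its mean CPM per kb of called peak over the 4 libraries (both log scales), and the 8 genes are in orange. They run along the lower edge, between 9.48 and 12.2 CPM per kb, while their widths span 2.34 to 15.3 kb.

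In order of mean density the promoter regions were *Lhx5* (12.2 CPM per kb), *Pou4f1* (12.03), *Lmx1b* (11.8), *Lbx1* (10.6), *Pax2* (10.6), *En1* (10.6), *Lhx1* (10.4) and *Tlx3* (9.48). For 6 of the 7 neighbouring pairs the mean difference was below the SD of that difference over the libraries. *Lhx1* was above *Tlx3* in 4 of 4 libraries, by 0.932 ± 0.651 CPM per kb (SD, n = 4). The base composition of the 500 bp windows differed more than the density. The ratio of observed to expected CpG ran from 0.129 in the *Tlx3* window to 1.00 in the *Pou4f1* window. These were at the 1.68 and 90.5 percentile of the windows in tested promoter regions. The windows lie at the midpoint of the interval all libraries called and not at the start site. For *Tlx3* that interval, chr11:33204751-33205439, lies upstream of the gene start at chr11:33203589, so the ratio at the start was not measured.

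The promoter levels were then set out by library, from the dorsal excitatory to the inhibitory factors. *Pou4f1* (chr14:104465388-104472307), which acts in dorsal excitatory and sensory neurons, had 21.02 and 56.3 CPM in WT against 48.5 and 44.3 in Fam5snv/snv. *Tlx3* (chr11:33199996-33206233), a selector of glutamatergic over GABAergic fate, had 24.2 and 47.8 CPM in WT against 40.3 and 37.6 in Fam5snv/snv. In both, WT replicate 1 was lowest and WT replicate 2 highest, so the genotypes overlapped. *Lmx1b* (chr2:33637946-33645771) had 61.0 and 69.6 CPM in WT against 67.8 and 53.0 in Fam5snv/snv. *Lbx1* (chr19:45233689-45237546), the determinant of dorsal association interneurons, had 11.9 and 38.3 CPM in WT against 31.3 and 29.8 in Fam5snv/snv. The 4 *Lmx1b* values lay close together, whereas *Lbx1* was lowest in WT replicate 1.

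Of the factors of inhibitory interneurons, *Pax2* (chr19:44754667-44757955) had 17.9 and 26.4 CPM in WT against 26.8 and 22.6 in Fam5snv/snv. *Lhx1* (chr11:84522105-84526407) had 13.7 and 40.1 CPM in WT against 26.9 and 23.8 in Fam5snv/snv. *En1* (chr1:120595865-120611200), the V1 factor, had 38.2 and 119 CPM in WT against 98.3 and 79.5 in Fam5snv/snv. All 3 overlapped between genotypes and were lowest in WT replicate 1. The *En1* peaks of WT replicate 1 covered 1993 bp of the region, against 12058 to 13804 bp in the other libraries, and how far covered length sets the count there was not tested. *Lhx5* (chr5:120430642-120432980) had 32.6 and 24.97 CPM in WT against 15.4 and 15.0 in Fam5snv/snv. In CPM, *Lhx5* was the only one of the 8 promoter regions in which the genotypes did not overlap, and its WT values lay above the Fam5snv/snv values. Of all tested promoter regions, 37.8% had both Fam5snv/snv libraries below both WT libraries in CPM and 10.4% had both above. Their median log2 fold change was −0.21. Per kb of called peak, both Fam5snv/snv libraries lay below both WT libraries in all 8, so this was not particular to *Lhx5*. The share of all promoter regions with this pattern per kb was not computed. With covered length as an offset, the median log2 fold change of all tested regions was also below 0 (−0.76 before centring).

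**Figure D3:**
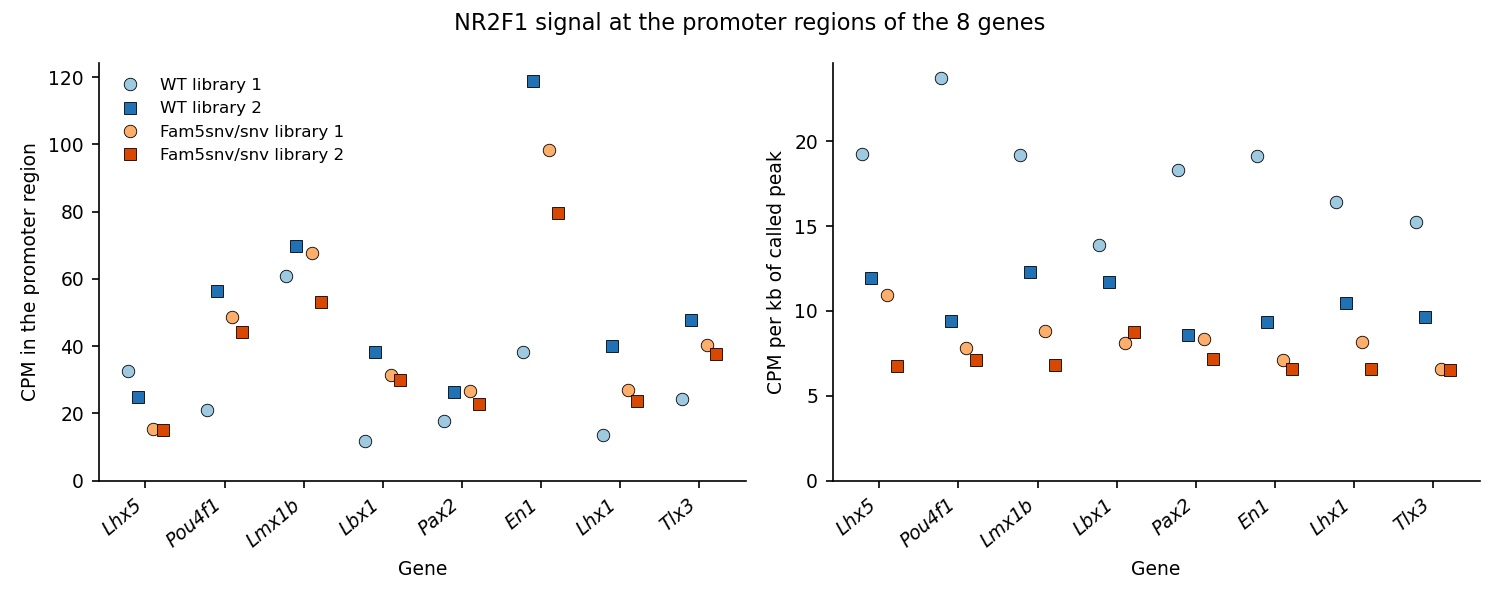
Points give the promoter region of each gene in each of the 4 libraries (blue WT, orange Fam5snv/snv, circles replicate 1 and squares replicate 2), as CPM on the left and as CPM per kb of called peak on the right, with genes ordered by mean density. In CPM, WT replicate 1 is the lowest point in 6 genes and WT replicate 2 the highest in 6; per kb, WT replicate 1 is the highest in all 8.

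The genotype comparison asked whether NR2F1 signal at these genes differed between Fam5snv/snv and WT. No member region passed an adjusted p of 0.05 in edgeR's quasi-likelihood test (0 of 34; the background was 0% of 35770 regions) or in DESeq2 (0 of 34, where it called 1.02% of regions higher and 0.542% lower). At an unadjusted p of 0.05, edgeR gave 1 member region higher and 1 lower in Fam5snv/snv, and 5.29% and 3.37% of all regions. Both Fam5snv/snv libraries were above both WT libraries in 5 of 34 member regions, against 23.2% of all regions, and below both in 4 of 34, against 21.4%. The median log2 fold change of the 34 was 0.11 (19 above 0 and 15 below) and that of all tested regions was 0.02. Leaving out WT replicate 1 moved the median of the 34 to −0.07, and leaving out WT replicate 2 moved it to 0.27. These p-values measure the spread between 2 libraries per genotype, each a pool of embryos, and fewer cells of a type and less signal per cell cannot be told apart in sums over barcodes.

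**Figure D4:**
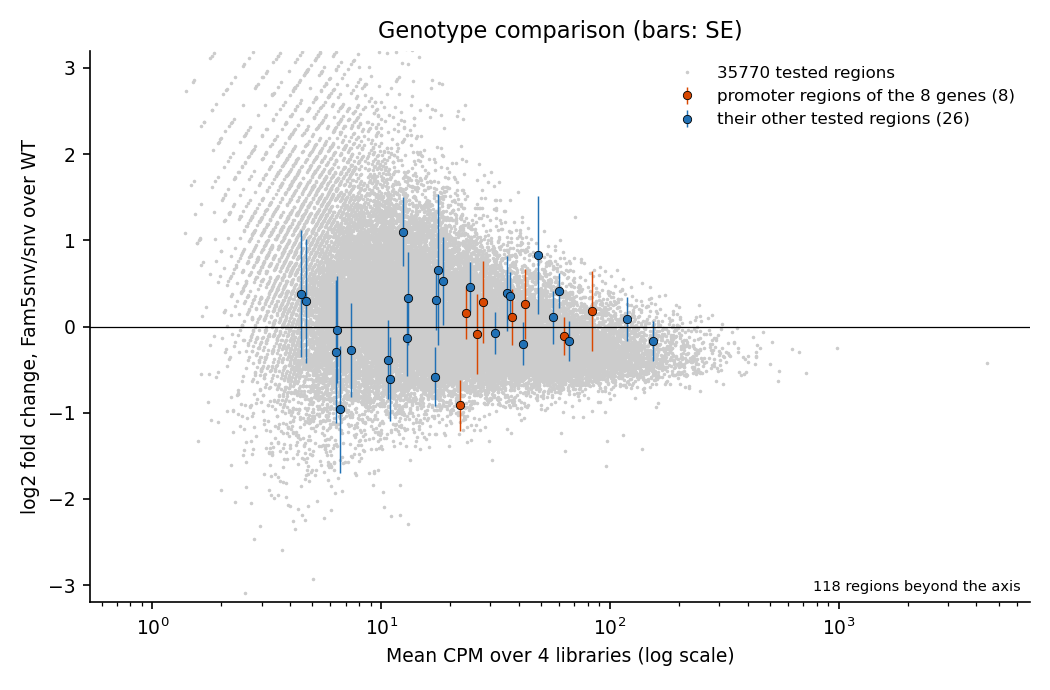
The log2 fold change of Fam5snv/snv over WT is plotted against the mean CPM over 4 libraries (log scale) for 35770 tested regions (grey, 118 of them beyond the axis), the 8 promoter regions (orange) and the 26 other member regions (blue), with bars for the SE. The member regions lie among the others, from −0.96 to 1.10, and the lowest orange point is the *Lhx5* promoter at −0.92.

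The member regions with the smallest unadjusted p lay at *Lhx5*, *Pax2* and *Lmx1b*. The log2 fold change of the *Lhx5* promoter region was −0.92 (SE 0.29; unadjusted p = 0.0171, adjusted p = 0.573 in edgeR; adjusted p = 0.104 in DESeq2). The non-coding gene *Gm27199* overlaps this region, and cut sites carry no strand. An intronic region of *Pax2*, chr19:44823490-44826239, had 7.71 and 8.09 CPM in WT against 18.5 and 15.4 in Fam5snv/snv, without overlap. Its log2 fold change was 1.10 (SE 0.40; unadjusted p = 0.0284, adjusted p = 0.573 in edgeR), and its peaks covered 402 and 1231 bp in WT and 2296 and 2121 bp in Fam5snv/snv. The *Lmx1b* intronic region chr2:33600448-33609750 had 50.1 and 52.1 CPM in WT against 73.8 and 62.7 in Fam5snv/snv (log2 fold change 0.42, SE 0.20, unadjusted p = 0.0783 in edgeR). With the number of base pairs that each library covered entered as an offset, centred on all regions, these fold changes were −0.06, 0.14 and 0.08. Before centring, the offset shifted the median of all regions by −0.76. The *Lhx5* promoter peaks covered 1694 and 2093 bp in WT and 1414 and 2225 bp in Fam5snv/snv. Its density was 19.2 and 11.9 CPM per kb in WT against 10.9 and 6.76 in Fam5snv/snv. Both Fam5snv/snv densities were below both WT densities, as at the other promoter regions of the member genes. With the centred offset no member region had an unadjusted p below 0.05 in edgeR, as had 0.238% of all regions higher and 0.0755% lower.

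Next in order were an exon-containing *Pax2* region, chr19:44816768-44819823, at 23.5 and 17.6 CPM in WT against 26.0 and 30.5 in Fam5snv/snv, and a region downstream of *Lbx1*, chr19:45220113-45221895, at 18.2 and 22.9 CPM in WT against 15.3 and 12.1 in Fam5snv/snv. Their log2 fold changes were 0.46 (SE 0.29) and −0.58 (SE 0.35). An intronic *Pax2* region that holds one of the printed repeats, chr19:44771492-44772318, had 12.96 and 4.57 CPM in WT against 3.42 and 5.56 in Fam5snv/snv, with overlap and a log2 fold change of −0.96 (SE 0.74). The genotypes did not overlap in the first and second of these 3 regions, and their unadjusted p-values in edgeR were 0.155, 0.136 and 0.233.

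Most of the remaining regions of high signal overlapped between genotypes. The *Lhx5* gene body region chr5:120434359-120441164 had 24.5 and 39.4 CPM in WT against 41.3 and 40.6 in Fam5snv/snv, 0.36 higher on the log2 scale (SE 0.28, unadjusted p = 0.235 in edgeR), without overlap and opposite in sign to the promoter region of the same gene. The region chr5:120456032-120459730 had 15.8 and 7.39 CPM in WT against 9.71 and 19.3 in Fam5snv/snv. The wide *Lbx1* region chr19:45222352-45232986, which reaches the 3′ end of the gene, had 8.06 and 61.9 CPM in WT against 65.6 and 58.5 in Fam5snv/snv, and its peaks covered 341 bp in WT replicate 1 and 5861 to 9115 bp elsewhere. WT replicate 1 alone was low there. Downstream of *Pou4f1*, within *D130079A08Rik*, chr14:104458681-104461583 had 32.6 and 32.0 CPM in WT against 33.8 and 27.7 in Fam5snv/snv, and chr14:104456801-104457607 had 15.1 and 11.3 CPM in WT against 11.1 and 6.20 in Fam5snv/snv. In the second of these both Fam5snv/snv values were below both WT values, by 0.61 on the log2 scale (SE 0.49). The region downstream of *Pax2*, chr19:44847419-44850666, had 45.5 and 15.8 CPM in WT against 41.8 and 38.4 in Fam5snv/snv, with WT replicate 2 alone low. The *En1* upstream region chr1:120589796-120590442, with the closest repeat, had 5.25 and 7.74 CPM in WT against 5.60 and 7.08 in Fam5snv/snv (log2 fold change −0.03, SE 0.62). The region counted for *Lhx1* at chr11:84512937-84516321 is the promoter of the neighbouring gene *Aatf* and had 50.1 and 39.4 CPM in WT against 44.6 and 33.5 in Fam5snv/snv.

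The sign of most promoter fold changes depended on which WT library was used. Without WT replicate 1, the log2 fold changes were −0.72 (*Lhx5*), −0.67 (*Lhx1*), −0.43 (*En1*), −0.33 (*Lbx1*), −0.30 (*Tlx3*), −0.29 (*Pou4f1*), −0.21 (*Lmx1b*) and −0.10 (*Pax2*), all below 0, and none passed an adjusted p of 0.05 in edgeR. Without WT replicate 2, they were −1.09, 0.89, 1.22, 1.36, 0.69, 1.14, −0.01 and 0.47 in the same order, and the adjusted p was 0.0208 for *Lhx5*, 0.00106 for *En1*, 0.00950 for *Lbx1* and 0.00646 for *Pou4f1*. *Lhx5* was lower in Fam5snv/snv in both cases. With all 4 libraries, 8858 of the 12647 tested promoter regions were below 0, so this was the more common sign at promoters. That count was not made for the fits without a WT library. Over the 34 member regions, 1 was called without WT replicate 1, the region downstream of *Pax2* at 1.33 (adjusted p = 0.0142 in edgeR), and 8 without WT replicate 2. Over all regions the same fits called 1911 (5.34%) and 6315 (17.7%). In each of these the remaining WT library is assumed to vary like the Fam5snv/snv libraries.

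**Figure D5:**
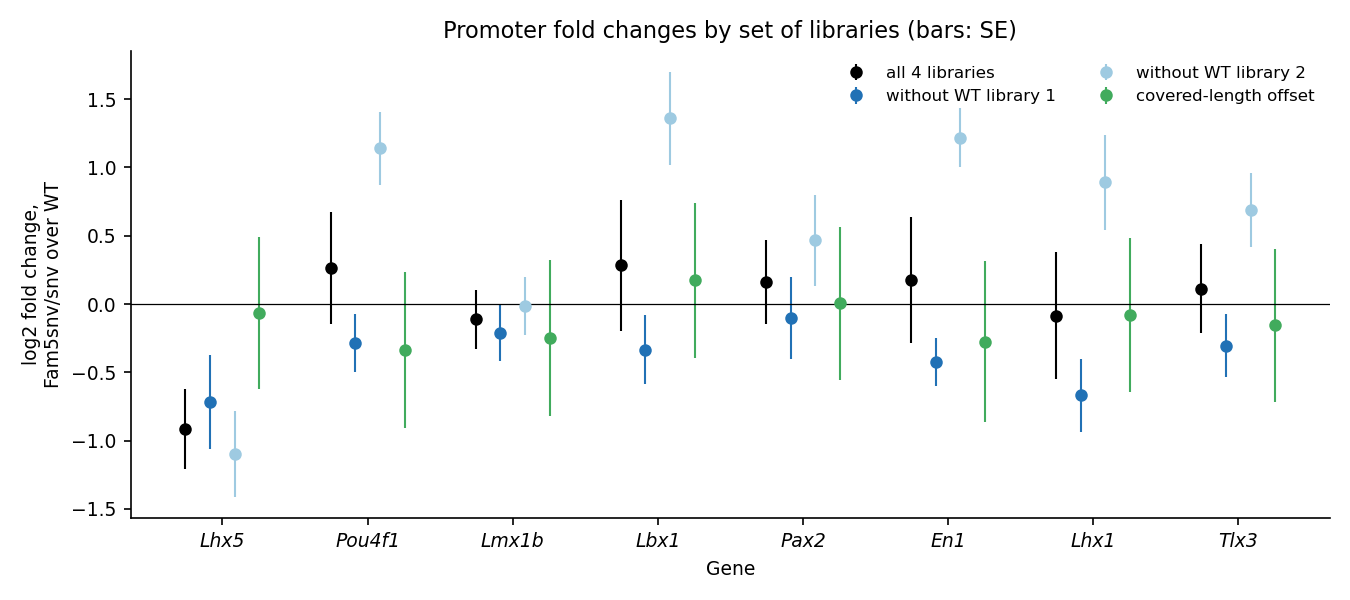
The log2 fold change of Fam5snv/snv over WT at each promoter region is shown with all 4 libraries (black), without WT replicate 1 (dark blue), without WT replicate 2 (light blue) and with the covered-length offset (green), with bars for the SE. All dark blue points are below 0, from −0.72 to −0.10, while light blue points reach 1.36. With all 4 libraries, 8858 of 12647 tested promoter regions were below 0.

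Summing all regions of a gene, called in every library or not, gave 17981 gene windows, of which edgeR called none at an adjusted p of 0.05 (0%) and 4.5% higher and 1.67% lower at an unadjusted p of 0.05. DESeq2 called 391 windows and none of the 8. For *Pax2* the window held 77.1 and 87.9 CPM in WT against 103 and 101 in Fam5snv/snv (log2 fold change 0.31, SE 0.15, unadjusted p = 0.0873, adjusted p = 0.758 in edgeR). For *Lhx5* it held 45.2 and 51.6 CPM in WT against 52.9 and 60.8 in Fam5snv/snv (0.23, SE 0.18). These were the 2 of 8 genes in which both Fam5snv/snv libraries were above both WT libraries, against 22.1% of all windows. For *Lmx1b* it held 329 and 294 CPM in WT against 341 and 326 in Fam5snv/snv (0.10, SE 0.18), with overlap. The *Lhx1* window includes the *Aatf* promoter. That promoter held 143 of 182 cut sites of the window in WT replicate 1 and 112 of 345 in WT replicate 2. In Fam5snv/snv replicates 1 and 2 it held 326 of 712 and 265 of 840. All 8 log2 fold changes were above 0, from 0.10 to 0.53 with a median of 0.29 against 0.01 for all windows, and no unadjusted p was below 0.05. The covered length behind these sums was 40.9 and 146 kb in WT and 164 and 197 kb in Fam5snv/snv over the 8 genes, with 73.1 and 29.8 cut sites per kb in WT and 65.4 and 59.3 in Fam5snv/snv. Without WT replicate 1 the log2 fold changes were −0.33 for *En1*, −0.17 for *Lbx1* and −0.14 for *Lhx1*, and the other genes stayed between 0.04 and 0.22. None of the 8 passed an adjusted p of 0.05 in edgeR there, against 5.7% of all windows, and none had an unadjusted p below 0.05. Without WT replicate 2 they were 0.02 to 1.65 and 6 of the 8 genes passed an adjusted p of 0.05 in edgeR (*Lhx1*, *Pou4f1*, *Pax2*, *Tlx3*, *En1* and *Lbx1*), as did 38.3% of all windows.

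Signal at these genes was spread over many barcodes. After each barcode was thinned to 567 cut sites, which left out 641 barcodes of WT replicate 1, a cut site in a member region was found in 33.0% of the barcodes of WT replicate 1 (exact binomial 95% interval, 30.9% to 35.1%) and 43.2% of those of WT replicate 2 (40.6% to 45.9%). The Fam5snv/snv libraries gave 43.5% (41.5% to 45.6%) and 42.7% (40.9% to 44.6%). These intervals cover counting error only. Before thinning the shares were 40.4%, 68.2%, 77.1% and 78.8%, with medians of 879, 1867, 2693.5 and 2984 cut sites per barcode. *Lmx1b* was reached in 20.3%, 20.1%, 21.9% and 21.4% of thinned barcodes and was the most often seen gene in every library. Its shares were alike in the 4 libraries, whereas *Lbx1* was seen in 1.50%, 5.96%, 4.44% and 5.11% and *En1* in 2.12%, 5.45%, 5.45% and 4.16%, lowest in WT replicate 1 in both cases. A barcode has counts only inside the peaks of its library, and thinning does not change this. Those peaks covered 2.09 kb around *Lbx1* and 2.21 kb around *En1* in WT replicate 1. Elsewhere they covered 15.35 to 18.21 kb and 18.35 to 18.8 kb. Around *Lmx1b*, whose shares were alike, they covered 18.83 kb in WT replicate 1 and 47.62 to 69.97 kb elsewhere. How far covered length sets these shares was not tested. The single barcode with most member cut sites held 0.547% to 1.59% of them.

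The lists of other genes give the setting of these values. Tested promoter regions were found for 22 of 37 other interneuron factors, of which 0 were higher and 1 was lower at an unadjusted p of 0.05 in edgeR. The lower one was that of *Foxp2*, at −0.66 (SE 0.24). Next came *Skor2*, a weak region with 8 and 8 cut sites in WT, at 1.50 (SE 0.68). Of the 6 interneuron transmitter genes 4 had a tested promoter region and none had an unadjusted p below 0.05. The region of *Gad2*, a GABA-synthesizing enzyme, was at 0.37 (SE 0.57). Motor neuron factors and cholinergic genes, which the sort should favour, had tested promoter regions in 10 of 13 genes and none below 0.05, with the smallest p at the region shared by *Chat* and *Slc18a3* (0.40, SE 0.22) and at *Hoxb1* (0.46, SE 0.27). Their summed promoter level was 940 to 1040 CPM per library.

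Markers of other cells that the sort could hold were also read at their promoters. The background over all tested promoter regions was 1.54% higher and 6.7% lower at an unadjusted p of 0.05 in edgeR. Of 8 endothelial genes 4 had a tested promoter region and 2 regions were higher at an unadjusted p of 0.05, *Erg* at 1.03 (SE 0.22; adjusted p = 0.573 in edgeR and 0.00713 in DESeq2) and *Sox18* at 0.57 (SE 0.21). The other 3 regions of the list were a second *Erg* promoter region at 0.02, *Cldn5* at −0.10 and *Sox17* at −0.05, the list median was 0.02, and *Cdh5*, *Pecam1* and *Kdr* had no tested promoter region. The summed level of the list was 156 and 174 CPM in WT against 227 and 206 in Fam5snv/snv. Of 8 blood genes 3 had one, *Nfe2* at 1.07 (SE 0.43) and *Klf1* at −0.32 (SE 0.33) among them, with sums of 56.8 and 66.5 CPM in WT against 78.3 and 63.2 in Fam5snv/snv, and *Gata1* and *Spi1* had no tested promoter region. Of 8 neural crest and mesenchyme genes 7 had one, with *Prrx1* at −1.33 (SE 0.54) and a weak promoter region of *Pdgfra*, with 3 and 13 cut sites in WT, at 2.20 (SE 0.73). The stronger *Pdgfra* promoter region was at −0.08 (SE 0.21). The list had sums of 115 and 198 CPM in WT against 161 and 142 in Fam5snv/snv. All 6 neural progenitor genes had one, none with an unadjusted p below 0.05 and the smallest at *Vim* (−0.30, SE 0.20) and *Hes5* (−0.25, SE 0.20), and their sums were 457 and 458 CPM in WT against 419 and 390 in Fam5snv/snv. The part of such cells in the values of the 8 genes was not tested.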

How the data were processed

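Single-cell CUT&Tag with an anti-NR2F1 antibody was measured in 2 WT and 2 Fam5snv/snv libraries. For each, the authors deposited cell barcodes, called peaks and a matrix of raw counts (whole cut sites) for every peak and barcode. Cell Ranger ATAC and the mm10 build are named in the submitters' processing notes, and the header of the count matrix gives software version 1.2.0. Peaks were called in each library separately, so a library has counts only inside its own peaks and wider peaks hold more counts. Most nonzero entries (76.3% to 81.1%) were even, as both ends of a fragment give. The matrices hold only barcodes that the authors called as cells; doublets were not called, cells were filtered no further, and no clustering was done.

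Here, counts were summed over barcodes, peaks were merged (overlap of at least 1 bp) and regions were annotated with GENCODE M21. Regions called in all 4 libraries, with a minimum of 10 cut sites in 2 of them, were tested with edgeR 4.0.16 (quasi-likelihood, TMM, no block) in R 4.3.3 over all 35770 regions with Benjamini-Hochberg adjustment. The residual degrees of freedom were 2. The lower counts of the WT libraries (median 42 and 47 per tested region, against 126 and 139) limit the precision. DESeq2 1.42.0 was an alternative. An exact permutation test of 2 against 2 libraries cannot go below p = 0.333 and was not used. The fits were tested on simulated counts and the motif search on short made-up sequences. The simulated counts had a common dispersion and no difference in called peaks between libraries. The alternatives were other scalings, count filters, a covered-length offset, merging at 100 bp, a window of 5 kb, leaving out each library and a replicate block.

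The 8 genes and the gene lists were chosen with earlier results of these data known. Regions were named by rule: each promoter region, the 2 other tested regions of highest mean CPM per gene, every member region past an adjusted p of 0.05 with all libraries in edgeR or DESeq2 (none), the 3 of smallest unadjusted p in each direction, and 2 promoter regions per list of other genes, of which 1 region is not reported here. Sequences and coordinates are from GRCm38, whose chromosomes are those of mm10.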

Additional observations from a re-analysis of the deposited data

How the results depend on the processing

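Of the counts of calls, edgeR gave 0 member regions under each other scaling, count filter, merging rule, window and the covered-length offset, and DESeq2 also gave 0. Leaving out 1 library moved them: member regions called ranged from 0 to 8, all regions from 0 to 6315 and gene windows from 0 to 6884, with the highest values without WT replicate 2. Without WT replicate 1, the counts were 1, 1911 and 1025. Over all regions DESeq2 called 560, the requirement that every library cover at least 50% of the region gave 18, and the set with a peak in the 3 libraries other than WT replicate 1, an alternative chosen after seeing the data, gave 102 of 64126. DESeq2 called 391 gene windows. The cause of these differences was not tested.

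The median log2 fold change of the member regions, 0.11, ranged from −0.07 to 0.27 when 1 library was left out (−0.07 without WT replicate 1) and was 0.29 with at least 50 cut sites in every library. It was −0.15 with the covered-length offset, −0.31 for the 5 member regions covered to at least 50% in every library, and −0.10 in 61 regions without WT replicate 1 (chosen after seeing the data). The offset alone shifted all regions by −0.76 before centring. It also turned the sign at the promoter regions of *Pou4f1* (−0.34), *Tlx3* (−0.16) and *En1* (−0.28), at the *Lmx1b* intronic region of highest density (−0.44), the exon-containing *Pax2* region (−0.36), the wide *Lbx1* region (−0.42), the longer of the *Pou4f1* downstream regions (0.044) and the *En1* upstream region (0.15), and for the gene windows of *Lhx1* (−0.40), *Lmx1b* (−0.061), *Pou4f1* (−0.035) and *En1* (−0.040). With at least 50 cut sites in every library, the *Lmx1b* promoter region was at 0.077, the *Lmx1b* intronic region of highest CPM at 0.040 (0.14 with 50% coverage), the *Aatf* promoter at 0.0059 and the longer *Pou4f1* downstream region at 0.12. From regions with a peak in all 4 libraries alone, the *Lhx1* window was at −0.0069. None of these passed the threshold.

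Leaving out 1 library at a time, the promoter fold changes ranged from −0.67 to 0.89 (*Lhx1*), −0.30 to 0.057 (*Lmx1b*), −0.29 to 1.14 (*Pou4f1*), −0.10 to 0.47 (*Pax2*), −0.30 to 0.69 (*Tlx3*), −0.43 to 1.22 (*En1*) and −0.33 to 1.36 (*Lbx1*), while *Lhx5* stayed between −1.09 and −0.72. Other regions ranged from −0.25 to 0.97 (*Lhx5* downstream), −0.38 to 0.065 (*Lmx1b* intron, highest CPM), −0.18 to 0.41 (*Lmx1b* intron, highest density), −0.22 to 0.068 (*Pou4f1* downstream), −0.18 to 1.33 (*Pax2* downstream), −0.29 to 0.27 (*En1* upstream) and −0.0036 to 2.94 (wide *Lbx1* region). Gene windows ranged from −0.14 to 0.57 (*Lhx1*), −0.33 to 1.39 (*En1*) and −0.17 to 1.65 (*Lbx1*).

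The replicate numbers are shared by the genotypes, but deviations of same-numbered libraries correlated at 0.028 over tested regions, so no pairing was assumed. With a replicate block edgeR called 0 regions, the member median was 0.17, and the *Lhx1* promoter region turned to 0.068. The median percentile of the 8 promoter regions was 55.8 by total CPM, 9.82 per kb and 10.4 per kb without WT replicate 1 (chosen after seeing the data). Without thinning, the shares of barcodes with a cut site were 40.4% and 68.2% in WT and 77.1% and 78.8% in Fam5snv/snv. Of 337 comparisons for single regions and genes, 285 kept direction and side of the threshold, 40 turned sign and 12 passed the threshold.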
